A study of Mus musculus with 6 samples.

Results

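The 9 genes described here encode chemokines that immune cells release during inflammation, namely Ccl3, Ccl4, Ccl5, Xcl1, Cxcl9, Cxcl10, Cxcl2, Ccl6 and Ccl9. They were taken by symbol from a table of 54532 genes, and all 9 were among the 13480 genes with enough counts to be tested. The samples were bone marrow cells selected with CD8 magnetic beads from female mice of the F1 hybrid CByB6F1 at an age of 2 to 5 months. All of the mice had immune bone marrow failure (BMF), a disease where blood formation is destroyed by T cells. In 3 libraries (pools 1 to 3) the mice were treated with ruxolitinib, a drug that blocks the kinases JAK1 and JAK2, and in 3 control libraries (pools 4 to 6) they were untreated. Each library held cells of 2 to 3 mice of one group. The sources used here do not state how the disease was induced, the dose or the length of treatment, and mice without the disease were not analysed here.

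Chemokines are small secreted proteins that bind receptors on leukocytes and direct their migration. Activated CD8 T cells and natural killer cells release Ccl3, Ccl4, Ccl5 and Xcl1. Cxcl9 and Cxcl10 are induced by interferon gamma, whose receptor signals through JAK1 and JAK2, and they attract T cells that carry the receptor Cxcr3. Cxcl2 attracts neutrophils through Cxcr2 and is made by myeloid cells after an inflammatory stimulus, and Ccl6 and Ccl9 are products of myeloid cells.

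The promoters of the pair induced by interferon gamma and of Cxcl2 are shown because these 3 CXC chemokine genes gave the results set side by side below. Each sequence is the stretch directly before the gene's start, 5′ to 3′ on the gene's strand, from RefSeq (GRCm38.p6, the assembly of mm10). Cxcl9 lies at chr5:92328080-92328329 on the minus strand, Cxcl10 at chr5:92348890-92349139 on the minus strand, and Cxcl2 at chr5:90903649-90903870 on the plus strand, where 28 bases that the deposited table places inside the gene were left off. Capitals mark matches on either strand to the interferon-stimulated response element (ISRE, the letters GAAA at both ends of a gap of any 2 bases), the NF-kB consensus or the AP-1 element (TGANTCA).
Cxcl9: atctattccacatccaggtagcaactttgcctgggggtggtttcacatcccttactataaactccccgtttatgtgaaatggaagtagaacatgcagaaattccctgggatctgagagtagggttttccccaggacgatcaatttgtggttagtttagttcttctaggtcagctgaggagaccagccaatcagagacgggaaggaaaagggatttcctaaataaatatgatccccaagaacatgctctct
Cxcl10: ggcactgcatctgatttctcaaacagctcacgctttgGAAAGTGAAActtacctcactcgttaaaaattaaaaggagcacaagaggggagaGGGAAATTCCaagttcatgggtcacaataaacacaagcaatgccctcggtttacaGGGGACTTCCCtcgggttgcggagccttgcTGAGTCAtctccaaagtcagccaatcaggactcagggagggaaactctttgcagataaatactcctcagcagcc
Cxcl2: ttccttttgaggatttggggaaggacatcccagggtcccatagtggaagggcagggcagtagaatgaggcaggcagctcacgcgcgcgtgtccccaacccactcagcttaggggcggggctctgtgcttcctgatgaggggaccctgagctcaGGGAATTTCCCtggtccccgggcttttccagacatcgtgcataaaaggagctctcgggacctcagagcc

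Cxcl10 held an ISRE match 213 to 204 bases before its start, a first NF-kB match 159 to 150 bases before it, overlapping NF-kB matches 104 to 94 bases before it and an AP-1 match 74 to 68 bases before it. Cxcl2 held overlapping NF-kB matches 97 to 87 bases before its RefSeq start, which lies 28 bases inside the deposited gene and so past the end of the printed sequence, and in Cxcl9 none of the 3 motifs matched these letters. Among 32851 RefSeq promoter windows of 250 bases, 2.98% held the ISRE, 7.25% the NF-kB consensus and 6.75% the AP-1 element. Promoter sequences were used for 7 of the 9 genes, and of the other 4 only Ccl9 held a match (NF-kB and AP-1), while Ccl3, Ccl6 and Xcl1 held none. The Ccl3 window (83649379 to 83649628) does not adjoin the deposited gene, which ends at 83649355. Its orientation could not be matched to a transcript either, so the absence of matches in Ccl3 is less certain. Of the 21 promoter pairs, Cxcl9 with Cxcl10 shared the joint highest local alignment score, with 23 identical bases over 28 aligned columns 68 to 44 bases before the start of Cxcl9 and 57 to 31 bases before that of Cxcl10, tied with Ccl6 and Ccl9 (16 identical over 17). A match is a description of the letters and not a measured binding site.

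The ruxolitinib libraries held 13829808 to 14139605 counts and the control libraries 15740514 to 17708196. Levels are given as CPM, counts per 1000000 counts of the library after scaling with edgeR's TMM factor. Fold changes are log2 values ± SE and are positive where ruxolitinib was above control. A gene is called higher or lower where edgeR's adjusted p was under 0.05. By that measure 25.3% of all genes tested were lower and 29.9% higher, 55.2% in all, with a median log2 fold change of 0.03. The make-up of the libraries differed between the groups. Of 17 CD8 T cell identity genes (Trbc2 and Thy1 the most abundant) 16 were lower (10 without ruxolitinib pool 1), with a summed level of 10632 to 12909 CPM in control pools and 1892 to 5415 CPM in ruxolitinib pools. Among ruxolitinib libraries, pool 3 was nearest to the controls in this sum (5415 CPM), and the fold changes of the 9 genes, their summed share of counts and the mean levels that it moves by over 1.5 times are also given without it.

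Of the 9 chemokine genes, 4 were lower with ruxolitinib (Ccl3, Ccl4, Ccl5 and Cxcl9), 2 were higher (Cxcl2 and Ccl6), and Xcl1, Cxcl10 and Ccl9 did not pass. The 6 calls among 9 genes are close to the 55.2% called among all genes. The same 4 genes had ruxolitinib pools that all lay below the controls, as did 30.3% of all genes tested, and the same 2 had pools that all lay above them, as did 35.7% of all genes. Together the 9 genes took 0.611%, 0.501% and 0.388% of all counts in control pools 4, 5 and 6, and 0.0850%, 0.0974% and 0.257% in ruxolitinib pools 1, 2 and 3. The groups did not overlap (0.50 ± 0.111% against 0.146 ± 0.0957%, mean ± SD, n = 3 each, two-sided exact permutation test, p = 0.1, the lowest possible value for 3 against 3). Without ruxolitinib pool 3 the mean share with ruxolitinib was 0.0912%. Ccl5 alone made up 64.3% to 77.6% of these counts in controls and 54.4% to 74.8% with ruxolitinib.

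**Figure D1:**
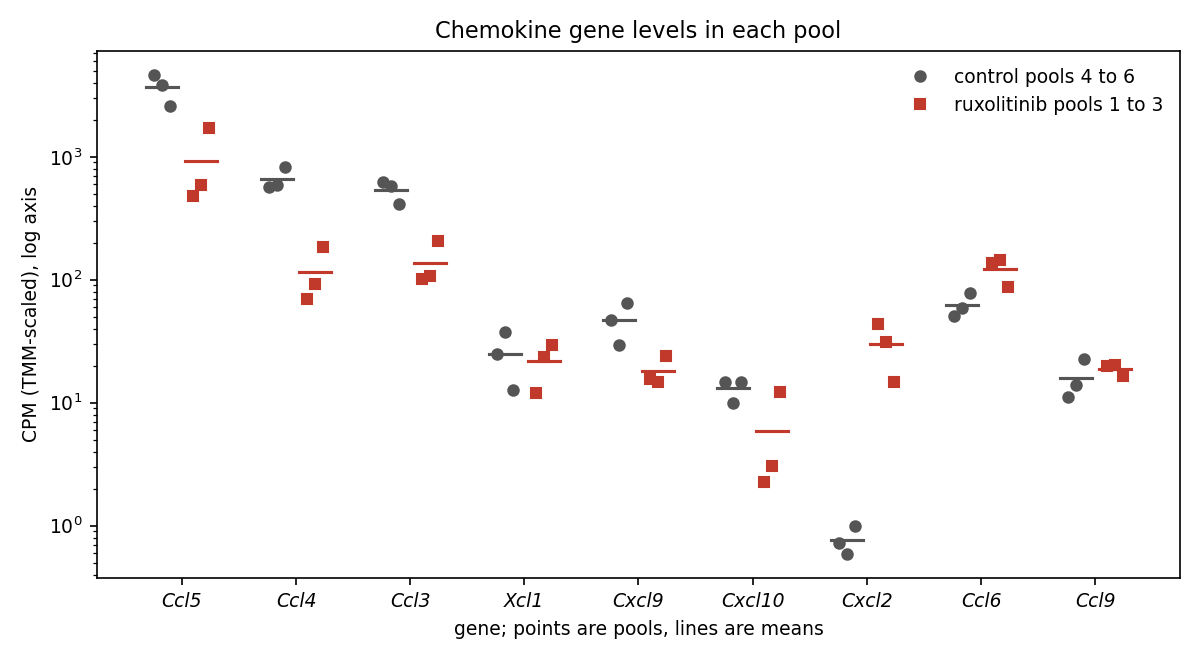
Level of each chemokine gene in CPM on a log axis, 1 point per pool, with group means as lines (controls grey circles, ruxolitinib red squares). All ruxolitinib pools lie below all control pools for Ccl5, Ccl4, Ccl3 and Cxcl9 and above them for Cxcl2 and Ccl6, and pool 3 is the highest ruxolitinib point for Ccl5 at 1699.5 CPM.

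The 3 CC chemokines of cytotoxic lymphocytes fell together. Ccl5, which attracts T cells, monocytes and eosinophils through receptors that include Ccr1 and Ccr3, stood at 4652, 3833 and 2589 CPM in control pools 4, 5 and 6 and at 479, 588 and 1699.5 CPM in ruxolitinib pools 1, 2 and 3. Pool 3 held more Ccl5 than pools 1 and 2 together, and every ruxolitinib pool lay below every control. The log2 fold change was -2.0 ± 0.49 (adjusted p = 0.00649), and -2.80 without pool 3 (adjusted p = 0.000460).

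Ccl4, an attractant of T cells and monocytes, was at 571, 593 and 828 CPM in control pools 4, 5 and 6 and at 69.7, 92.6 and 183 CPM in ruxolitinib pools 1, 2 and 3. Its log2 fold change was the lowest of the 9 genes in this fit, -2.53 ± 0.37 or 5.76-fold lower (adjusted p = 0.000474), and -3.04 without pool 3. Ccl3, a ligand of Ccr1, went from 620, 580 and 416 CPM in controls to 101, 108 and 205 CPM with ruxolitinib (-1.97 ± 0.32, adjusted p = 0.000808, and -2.37 without pool 3). For both genes pool 3 was the highest ruxolitinib library and the groups did not overlap.

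Xcl1, whose product attracts the Xcr1-bearing dendritic cells that cross-present antigen, was the exception among the lymphocyte chemokines. It was at 25.0, 37.2 and 12.8 CPM in control pools 4, 5 and 6 and at 12, 23.6 and 29.6 CPM in ruxolitinib pools 1, 2 and 3. The groups overlapped over nearly their whole ranges. The value was -0.20 ± 0.41 (adjusted p = 0.699), and its sign turned without ruxolitinib pool 1 (0.13) or control pool 5 (0.22). Without ruxolitinib pool 3 it was -0.50 (adjusted p = 0.396). In these bulk libraries fewer cells of a type and less RNA per cell cannot be told apart.

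The 2 CXC chemokines of the interferon gamma response had lower mean levels, and only Cxcl9 passed. Cxcl9 was at 46.8, 29.5 and 64.2 CPM in control pools 4, 5 and 6 and at 15.7, 14.7 and 23.8 CPM in ruxolitinib pools 1, 2 and 3. Every ruxolitinib pool was below the lowest control, pool 5 (-1.37 ± 0.32, adjusted p = 0.00486, and -1.63 without pool 3). Cxcl10, the gene with the ISRE match shown above, was at 14.7, 10.01 and 14.6 CPM in controls and at 2.27, 3.04 and 12.2 CPM with ruxolitinib. Pools 1 and 2 were far below the controls and pool 3 lay among them. The value was -1.16 ± 0.55 (adjusted p = 0.101), and -2.31 without pool 3 (adjusted p = 0.00123). Limma-voom also called it lower with all pools (-1.51, adjusted p = 0.0293). Cxcl11, the third ligand of Cxcr3, had too few counts to be tested (0.344 ± 0.307 CPM in controls and 0.0421 ± 0.0730 CPM with ruxolitinib).

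Cxcl2 rose. It was almost silent in control pools 4, 5 and 6, at 0.720, 0.589 and 0.997 CPM (13, 9 and 16 reads), and stood at 43.5, 31.2 and 14.6 CPM (594, 410 and 231 reads) in ruxolitinib pools 1, 2 and 3. The lowest ruxolitinib library, pool 3, was still well above the highest control. The log2 fold change was 5.26 ± 0.47, or 38.3-fold (adjusted p = 3.34e-05), and 5.58 without pool 3. Its close relatives Cxcl1 and Cxcl3 had too few counts to be tested.

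Ccl6 and Ccl9, neighbouring genes for monocyte and neutrophil attractants, differed in their calls. Ccl6 was at 51.1, 59.1 and 77.4 CPM in control pools 4, 5 and 6 and at 137, 144 and 87.3 CPM in ruxolitinib pools 1, 2 and 3. The groups came close between control pool 6 and ruxolitinib pool 3 without overlapping (0.97 ± 0.25, adjusted p = 0.00932, and 1.16 without ruxolitinib pool 3). Ccl9 was at 11.1, 13.8 and 22.6 CPM in controls and at 19.8, 20.1 and 16.6 CPM with ruxolitinib. Control pool 6 was its highest library of all. The value was 0.25 ± 0.29 (adjusted p = 0.481), or 0.33 without ruxolitinib pool 3 (adjusted p = 0.423), and Ccl9 passed without control pool 6 (0.59, adjusted p = 0.0400). The difference between the 2 genes was not tested.

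Per kilobase of gene length, controls expressed Ccl5 most, at 3845 ± 1082 CPM per kb, followed by Ccl4 (1005.9 ± 216), Ccl3 (703 ± 141), Xcl1 (47.8 ± 23.4), Ccl6 (34.9 ± 7.51), Cxcl9 (15.5 ± 5.76), Cxcl10 (5.83 ± 1.20), Ccl9 (5.20 ± 1.98) and Cxcl2 (0.372 ± 0.101). Of the neighbours in this order, Xcl1 and Ccl6 overlapped, and so did Cxcl10 and Ccl9. With ruxolitinib Ccl5 still led at 960 ± 704 CPM per kb, then Ccl3 (180 ± 75.7) and Ccl4 (175 ± 91.1), which overlapped. Ccl6 (68.4 ± 17.2) now stood above Xcl1 (41.6 ± 17.1) with overlapping ranges, and Cxcl2 (14.4 ± 7.0) had moved from the last place to the sixth. Ccl9 (6.18 ± 0.646), Cxcl9 (5.99 ± 1.66) and Cxcl10 (2.59 ± 2.45) closed the order, each overlapping the next. Without pool 3 the ruxolitinib mean was 555 CPM per kb for Ccl5 and 1.18 for Cxcl10, and the order of the 9 means was the same.

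The levels were also set against marker genes within each library. Relative to the geometric mean of the 17 CD8 T cell identity genes, Ccl3 was at 0.16, 0.07 and -0.06 on the log2 scale in control pools 4, 5 and 6 and at 0.10, -0.07 and -0.36 in ruxolitinib pools 1, 2 and 3, so the groups overlapped. Ccl5 likewise overlapped, at 2.58 to 3.07 in controls and 2.34 to 2.69 with ruxolitinib, and so did Cxcl9 and Cxcl10. Ccl4 did not overlap, with 0.05, 0.10 and 0.93 in controls and -0.44, -0.29 and -0.52 with ruxolitinib. Xcl1 was above the controls in every ruxolitinib pool on this scale, at -2.98, -2.26 and -3.15 against -4.47, -3.89 and -5.09. Cxcl2, Ccl6 and Ccl9 were also above without overlap, by 7.03, 2.81 and 2.16 between the group means, beside 1.69 for Xcl1. The identity genes themselves fell under TMM, and the share of all genes that rise on this scale was not computed.

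With libraries scaled to those identity genes in the edgeR fit, the median of all genes moved to 2.00, 70.5% of all genes were called higher and 0.467% lower. Under that scaling none of the 9 genes was lower. Ccl4 was at -0.83 ± 0.57 (adjusted p = 0.175), Ccl5 at -0.35 ± 0.57 and Ccl3 at -0.16 ± 0.56, while Cxcl9 (0.43 ± 0.57) and Cxcl10 (0.32 ± 0.64) turned in sign. Xcl1 (1.66 ± 0.59, adjusted p = 0.00869), Ccl9 (2.21 ± 0.60), Ccl6 (3.01 ± 0.61) and Cxcl2 (7.40 ± 0.77) were called higher, of which Xcl1 lay below the median of all genes. This scaling takes the identity genes to be unaffected by the drug, which was not tested.

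**Figure D2:**
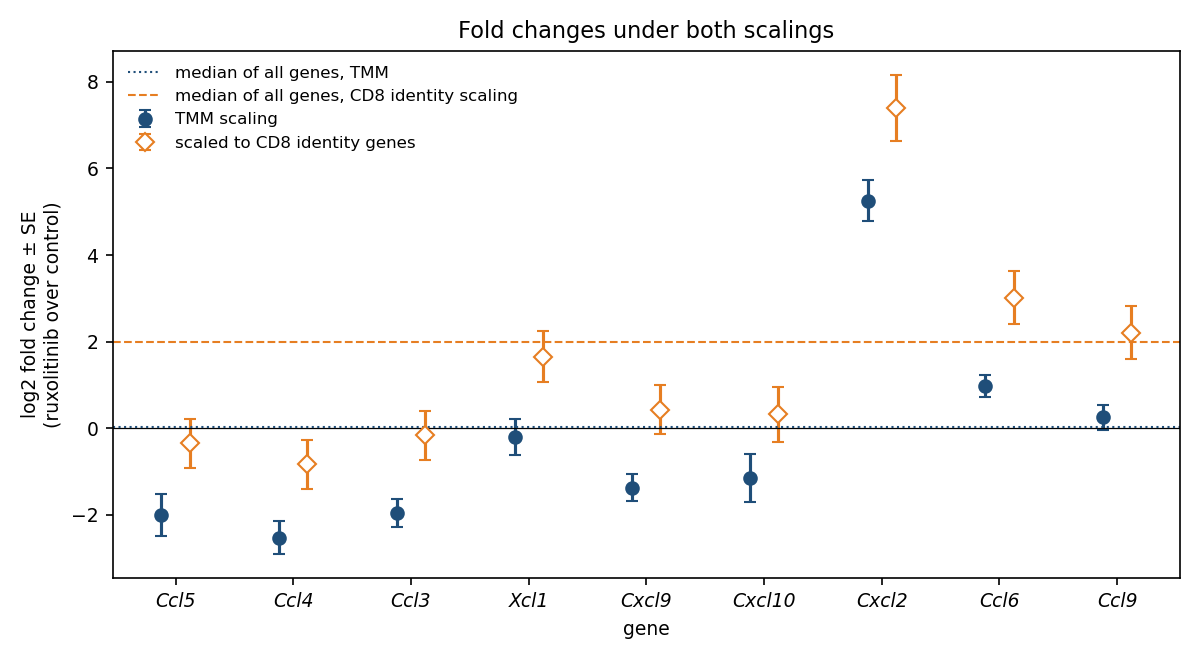
Log2 fold change ± SE of each chemokine gene with TMM scaling (filled circles) and with the CD8 identity genes as the scale (open diamonds), with the median of all genes under each as a line (0.03 and 2.00). Ccl4 is lowest under both, and Cxcl2 is above both lines, at 5.26 and 7.40.

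Markers of other marrow cells moved in the same libraries, where 29.9% of all genes were higher and 25.3% lower. All 18 monocyte and macrophage genes, with Hmox1 and Lyz2 the most abundant, were higher (summed level 1557 to 2009 CPM in control pools and 10781 to 17282 CPM in ruxolitinib pools, no marker at 0 in a whole group), with a median of 3.38. Of 15 neutrophil genes 13 were higher (1620 to 6303 against 9661 to 22791 CPM). All 9 tested eosinophil, basophil and mast cell genes of 12 were higher (2.88 to 39.2 against 238 to 332 CPM, with Il5ra and Cd200r3 at 0 in controls), as were all 7 B cell genes (9.14 to 11.8 against 191 to 193 CPM, with Ms4a1 and Pax5 at 0 in controls) and all 9 erythroid genes (1863 to 2690 against 124729 to 244672 CPM). Of 8 dendritic cell genes 5 were higher (48.0 to 54.7 against 124 to 152 CPM, with Flt3 and Siglech at 0 in controls). Of 10 stromal and endothelial genes 8 were tested and 7 were higher (28.8 to 35.7 against 68.8 to 85.6 CPM, with Emcn, Lum and Dcn at 0 in controls). Of 8 platelet genes 6 were tested, 4 were higher and 1, Itgb3, was lower (39.8 to 60.7 against 47.0 to 62.0 CPM, with Gp1bb at 0 in all libraries). Of 6 natural killer cell genes the 2 tested, Klre1 and Klra7, were lower (19.7 to 59.1 against 2.81 to 6.26 CPM, with Klra4 at 0 in controls). Most of that sum was Klre1 (mean 34.0 CPM in controls and 3.15 CPM with ruxolitinib). Klra7 was at 0.938 and 0.0497 CPM, and the others, Ncr1 among them, had too few counts to be tested. The part of these cells in the chemokine results was not tested.

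Relative to the monocyte and macrophage genes, 8 of the 9 chemokine genes were lower in every ruxolitinib pool than in any control. The geometric mean of these marker genes itself went from 43.4 to 59.0 CPM in controls to 316 to 485 CPM with ruxolitinib. A gene that is level under TMM therefore falls on this scale. Xcl1 and Ccl9, which did not pass under TMM, had differences of -3.20 and -2.73. The share of all genes that fall on this scale was not computed. Ccl6 was at -0.02, 0.45 and 0.39 on the log2 scale in control pools 4, 5 and 6 and at -1.82, -1.74 and -1.85 in ruxolitinib pools 1, 2 and 3, a narrow range within each group. Ccl9 went from -2.23 to -1.38 in controls to -4.62 to -4.25 with ruxolitinib. Cxcl2 alone was higher on this scale, at -6.17, -6.20 and -5.89 in controls and at -3.48, -3.94 and -4.43 with ruxolitinib, a difference of 2.13 between the group means. Relative to the geometric mean of the neutrophil genes Cxcl2 was higher by 2.25, again without overlap, and Ccl6 was lower by 1.96 without overlap. Under TMM the neutrophil genes ranged in log2 fold change from 0.30 ± 0.37 (Elane) to 5.46 ± 0.74 (Mmp8). Cxcl2, at 5.26 ± 0.47, lay within that range.

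**Figure D3:**
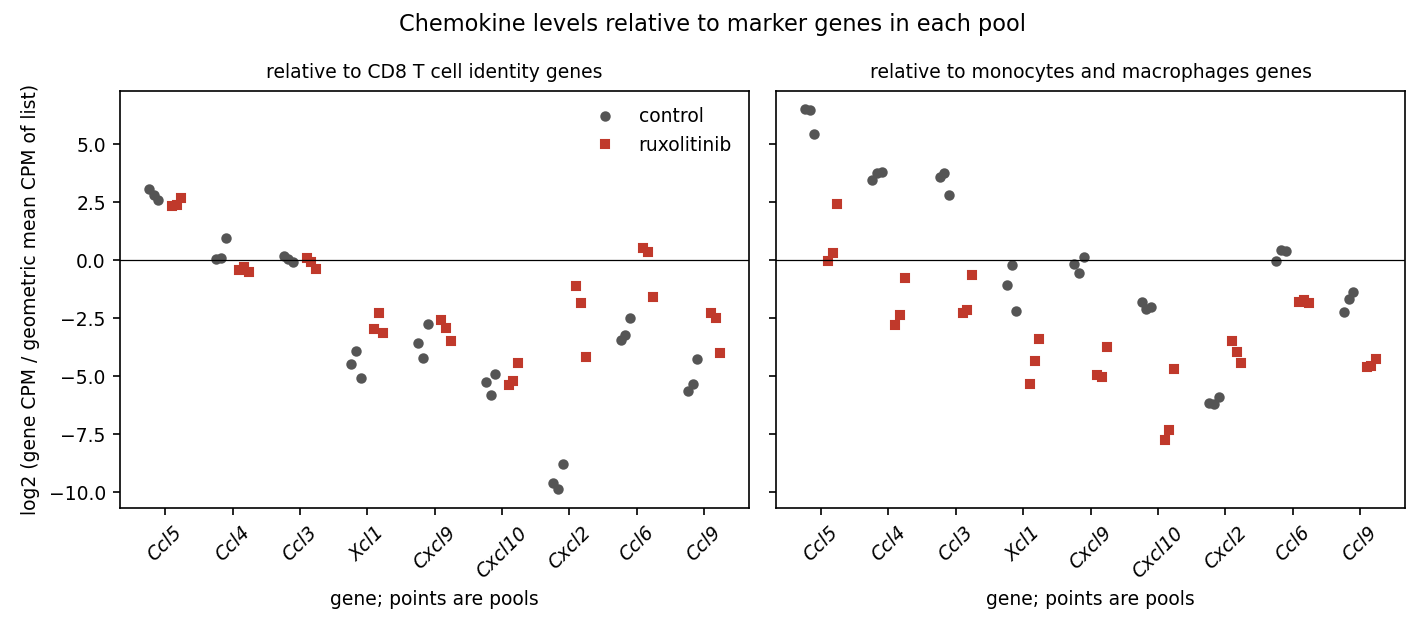
Log2 ratio of each chemokine gene to the geometric mean of the CD8 T cell identity genes (left) and of the monocyte and macrophage genes (right), 1 point per pool. On the left Ccl5, Ccl3, Cxcl9 and Cxcl10 overlap between the groups, and on the right Cxcl2 is the gene whose ruxolitinib pools lie above its controls (-4.43 to -3.48 against -6.20 to -5.89).

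Of the 9 genes 5 lie in 1 stretch of 138.9 kb on chromosome 11 (mm10, positions as deposited), and they did not move together. In order they are Ccl5 (83525778 to 83530518), Ccl9 (83572919 to 83578636), Ccl6 (83587882 to 83593087), Ccl3 (83647844 to 83649355) and Ccl4 (83662584 to 83664683), all on the minus strand except Ccl4. The log2 fold changes along this order were -2.0, 0.25, 0.97, -1.97 and -2.53, so the called fall of Ccl5 and those of Ccl3 and Ccl4 flank the called rise of Ccl6. Cxcl9 (92321347 to 92328079) and Cxcl10 (92346638 to 92348889) lie within 27.5 kb on chromosome 5, Cxcl2 lies on chromosome 5 at 90903871 to 90905938, and Xcl1 on chromosome 1 at 164931644 to 164935527.

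The noncoding gene E230016K23Rik overlaps Ccl6 on the other strand. It had 75 reads over all libraries against 8218 for Ccl6, and it was lower with ruxolitinib (-1.88 ± 0.56, adjusted p = 0.0176). Art3 overlaps Cxcl10 with 85 reads against 918, and Gm20743 overlaps Xcl1 with 10 reads against 2168. The sources used here do not state whether counting used the strand, so reads of overlapping genes cannot be told apart, and reads of similar chemokine genes could be shared in part.

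**Figure D4:**
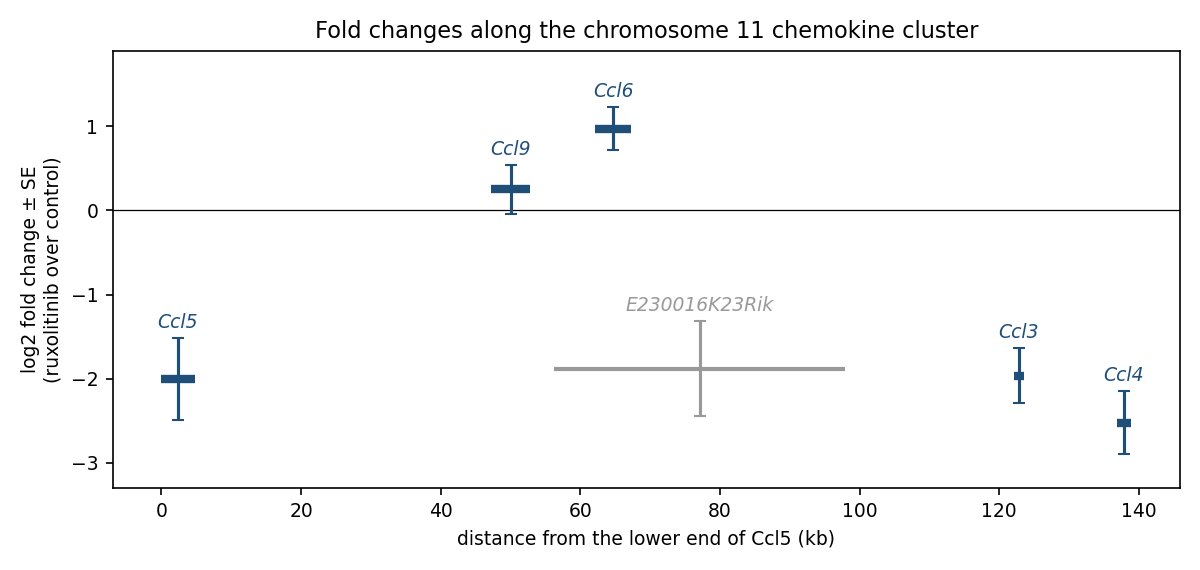
Log2 fold change ± SE of the genes tested in the chemokine cluster of chromosome 11, against distance in kb from the lower end of Ccl5, with horizontal bars spanning each gene. Ccl9 and Ccl6 (0.25 and 0.97) lie above 0 between Ccl5 (-2.0) on one side and Ccl3 and Ccl4 (-1.97 and -2.53) on the other, and E230016K23Rik is in grey.

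Of 29 other chemokine ligand genes 14 could be tested, 5 were higher and 4 lower (median 0.13, beside 0.03 for all genes). These counts are near the shares over all genes, 29.9% higher and 25.3% lower. Cxcl12, which retains blood-forming cells in the marrow, was at 60.2, 91.0 and 59.7 CPM in ruxolitinib pools 1, 2 and 3 and at 4.36 to 5.76 CPM in controls, the widest gap among these genes at more than 5 CPM (3.84 ± 0.27). Cxcl16, the membrane-bound ligand of Cxcr6, was higher (1.46 ± 0.38, adjusted p = 0.00954, and 2.05 without control pool 6), and so was the platelet chemokine Ppbp (1.42 ± 0.39, not past the threshold without ruxolitinib pool 2, adjusted p = 0.0676). Cxcl14 (3.17 ± 0.43) and Ccl22 (5.04 ± 0.95, and 8.14 without control pool 5) complete the 5 at under 5 CPM. Ccl22 was at 0 CPM in control pools 4 and 6 and at 0.196 CPM in pool 5. Its 8.14 is a fold over controls without counts, so its size is not fixed by the data.

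Ccl8, a monocyte chemokine and the most abundant of these genes in controls, fell from 32.3, 30.0 and 72.4 CPM in control pools 4, 5 and 6 to 19.0, 18.2 and 26.4 CPM (-1.08 ± 0.35, adjusted p = 0.0245). It did not pass without ruxolitinib pool 1 (adjusted p = 0.112) or pool 2 (adjusted p = 0.0890), and was at -0.57 without control pool 6. The eosinophil attractant Ccl24 fell (-2.13 ± 0.44), in libraries where the eosinophil, basophil and mast cell markers rose. Ccl27a (-2.42 ± 0.44) overlaps Il11ra1, which had 1097 reads against 328, and has further copies in the table. Ccl7, at 3.90 ± 3.37 CPM in controls, completes the 4 (-3.50 ± 0.83, -2.53 without control pool 6 and -4.44 without ruxolitinib pool 2). The most abundant genes that did not pass were the platelet gene Pf4 (-0.63 ± 0.46, and 0.17 without control pool 6), Ccl12 (-1.20 ± 0.55, and -1.73 with adjusted p = 0.0450 without ruxolitinib pool 3) and Ccl1 (0.22 ± 0.45). Ccl7, Ccl22 and Cxcl14 were named after their values were seen.

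Receptors of these chemokines are carried by different leukocytes. Of 8 receptor genes analysed 7 could be tested, 5 were higher and 2 lower, beside 29.9% and 25.3% of all genes. The T cell receptor Cxcr3, which binds Cxcl9 and Cxcl10, went from 168, 241 and 126 CPM in control pools 4, 5 and 6 to 39.3, 53.8 and 119 CPM in ruxolitinib pools 1, 2 and 3 (-1.33 ± 0.41, adjusted p = 0.0192, and -1.94 without ruxolitinib pool 3). Ruxolitinib pool 3 came close to control pool 6 without overlapping. The dendritic cell receptor Xcr1, which binds Xcl1, fell from 16.8 ± 3.16 to 7.11 ± 3.29 CPM (-1.23 ± 0.35, adjusted p = 0.0136). Neither passed without ruxolitinib pool 1 (adjusted p = 0.0915 and 0.0591), ruxolitinib pool 2 (adjusted p = 0.0790 and 0.0531) or control pool 5 (adjusted p = 0.0669 and 0.0522). With all pools, 5 of the 8 dendritic cell genes were higher and 0 lower, the other way from Xcr1. Which cells carried Xcr1 here was not tested.

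The receptors of myeloid cells and red cells were higher. The neutrophil receptor Cxcr2, which binds Cxcl2, rose from 6.48, 1.57 and 3.74 CPM in control pools 4, 5 and 6 to 82.5, 44.9 and 30.0 CPM in ruxolitinib pools 1, 2 and 3 (3.73 ± 0.53, adjusted p = 0.000371). The eosinophil receptor Ccr3 rose by 3.38 ± 0.31 and Ccr1 by 1.69 ± 0.34. The scavenging receptor Ackr1 of red cells and endothelium rose by 6.50 ± 0.48. Ccr1l1 had no counts in controls and 1.49 ± 0.647 CPM with ruxolitinib. The median of the 7 was 3.38, also with Ccr1l1 set to its bound against a floor of 3 counts over the control group. Neutrophil, eosinophil and erythroid markers rose in the same libraries, and their part was not tested.

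**Figure D5:**
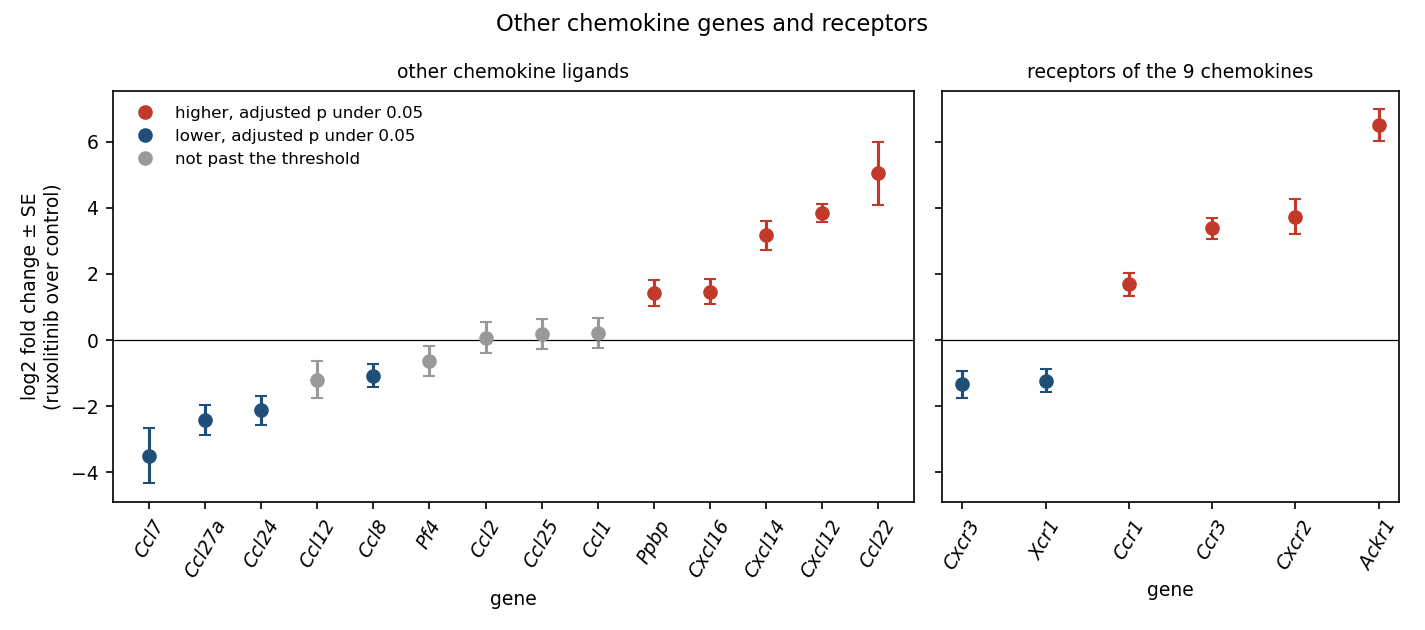
Log2 fold change ± SE of the 14 other chemokine ligand genes tested (left) and of 6 of the 7 receptor genes tested (right; Ccr1l1, without counts in controls, is left out). Red genes were higher and blue genes lower at adjusted p under 0.05, and Cxcr2 (3.73) and Ccr3 (3.38) lie opposite Cxcr3 (-1.33) and Xcr1 (-1.23).

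Of 9 genes analysed on the interferon gamma route, which drives Cxcl9 and Cxcl10, 5 were lower and 2 higher (median -1.18). The shares over all genes tested were 25.3% lower and 29.9% higher. Ifng itself was at 159, 141 and 137 CPM in control pools 4, 5 and 6 and at 20.1, 24.9 and 44.0 CPM in ruxolitinib pools 1, 2 and 3 (-2.29 ± 0.30, adjusted p = 0.000242). Under TMM every ruxolitinib pool was far below every control. The feedback inhibitor Socs1 fell by 2.36 ± 0.34 and Irf9 by 1.5 ± 0.24, where Irf9 overlaps Rnf31 on the same strand. Jak1, the most abundant of the genes that did not pass, had a value of 0.25 ± 0.21. The 2 higher genes were Jak2 (0.91 ± 0.18) and the receptor chain Ifngr2 (1.58 ± 0.48, and 2.48 without control pool 6). Ifngr2 did not pass without ruxolitinib pool 1 (adjusted p = 0.0638) or pool 2 (adjusted p = 0.0610). Ifngr2 was named after its values were seen. Once the CD8 identity genes set the scale in the edgeR fit, 4 genes of this route were higher and 0 lower. Of all genes 70.5% were higher and 0.467% lower under that scaling. Ifng was then at -0.52 ± 0.57 (adjusted p = 0.406) and Socs1 at -0.60 ± 0.57 (adjusted p = 0.339). Irf9 was at 0.35 ± 0.57. Whether Ifng fell per cell was not tested.

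NF-kB drives Cxcl2, Ccl3, Ccl4 and Ccl5 after many stimuli. None of the 8 genes of its subunits and inhibitors passed with all pools in the main edgeR fit with TMM (median 0.23). Of all genes 55.2% were called in that fit. With the CD8 identity genes as the scale all 8 were called higher, beside 70.5% of all genes. Under TMM the groups did not overlap for 2 of the 8. Tnfaip3, an inhibitor that NF-kB induces, had all ruxolitinib pools above the controls and a value of 0.71 ± 0.29 (adjusted p = 0.0608). It passed with DESeq2 (adjusted p = 0.0320), and in edgeR with RLE factors (adjusted p = 0.0494) or with no filter (adjusted p = 0.0330). The subunit gene Rela had all ruxolitinib pools below the controls, at 127, 114 and 130.3 CPM in pools 1, 2 and 3 against 158, 162 and 157 CPM in control pools 4, 5 and 6, and a value of -0.36 ± 0.18 (adjusted p = 0.117). Rela was named after its values were seen. At an unadjusted p under 0.05 in the main edgeR fit, 1 of the 8 passed, which was Tnfaip3, and limma-voom called 0 of them.

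The genes with the nearest profiles were sought among 9582 protein-coding genes by the root mean square (RMS) difference of log2 CPM over the 6 libraries, each gene centred on its mean. Ccl5 was nearest to Cd226, an activating receptor of T and natural killer cells (RMS 0.088), and to Gzmk, which encodes granzyme K (0.12). Ccl3 was nearest to Nt5c3b, a nucleotidase gene (0.082), and to Klrk1, which encodes the activating receptor NKG2D (0.088). Ccl4 was nearest to Nmb, which encodes neuromedin B (0.098), and to Gimap5, a lymphocyte GTPase gene (0.12). Ccl6 was nearest to Usp7, a deubiquitinase gene (0.062), and to Ly86, which encodes a partner of a Toll-like receptor relative on B cells and myeloid cells (0.068). Ccl9 was nearest to Tspan13 (0.063) and Trim23 (0.073), and Cxcl9 to Ap1s3 (0.17) and Sar1b (0.17), which serve vesicle traffic. Xcl1 (Rrad 0.21, Alkbh3 0.26), Cxcl10 (Plod2 0.27, D630039A03Rik 0.28) and Cxcl2 (Rragd 0.26, Tenm4 0.27) had no gene as near as these.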

How the data were processed

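Per the labels' protocols, libraries were made from total RNA with NEBNext Ultra II. Per the submitters' processing notes the tools include HISAT2 2.0.5 and the build mm10; the counting program and its strand setting are not stated there. The authors deposited counts per gene for all 6 libraries in 1 table with gene names, positions and lengths, and 0 of its per-sample columns were left unmapped. Pools were separate, so p-values measure the spread between pools of 2 to 3 mice.

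From the deposited counts, genes were filtered with filterByExpr, normalized with TMM and tested with edgeR 4.0.16 (robust quasi-likelihood test, Benjamini-Hochberg adjustment over all 13480 genes, R 4.3.3). SEs are the fold change over the square root of F. DESeq2 1.42.0 and limma 3.58.1 (voom), 5 other scalings, 2 other filters and leaving out each pool were the alternatives. CPM per kb uses the deposited gene length, and profiles used log2(CPM + 0.05). The test was checked on simulated counts with 1 shared make-up and few changed genes, unlike these libraries. In that check edgeR called 22 of 97 genes set to change 2-fold and 78 of 97 set to change 4-fold. It does not show how the test performs where most genes are called.

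The 9 genes and all gene lists were chosen with earlier results of these data known. Named genes were the 9, called ligands of at least 5 CPM and the 3 most abundant uncalled ones, all tested receptors, the 4 called genes of smallest p and the most abundant uncalled gene of each inducing pathway, the 2 most abundant of each marker list (not all printed) and the 2 nearest profiles of each of the 9. A few genes of the lists and 1 motif are not reported here.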

Additional observations from a re-analysis of the deposited data

How the results depend on the processing

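Of 135 values of the 9 genes under alternatives, 123 kept their direction and their side of the threshold. With CD8 identity genes as the scale, 9502 genes were higher and 63 lower, and 4 of the 9 chemokine genes were higher and 0 lower. Ccl3 (-0.16), Ccl4 (-0.83) and Ccl5 (-0.35) then lost their calls, Ccl9 (2.21) gained one, and Xcl1 (1.66), Cxcl9 (0.43) and Cxcl10 (0.32) changed sign. Under that scaling the other ligands had 9 higher and 0 lower, receptors 0 lower, the interferon gamma route 4 higher and 0 lower, NF-kB genes 8 higher, CD8 identity genes 0 lower, natural killer genes 1 lower, dendritic cell genes 8 higher and platelet genes 0 lower. Signs also changed there for Ccl8 (0.72), Pf4 (1.30), Ccl12 (0.46), Cxcr3 (0.38), Xcr1 (0.53), Irf9 (0.35), Irf1 (0.52), Ifngr1 (0.72), Itgb3 (0.97), Pecam1 (1.60), Rela (1.60), Rrad (1.45), Alkbh3 (1.74), Ap1s3 (0.28), Sar1b (0.56), Plod2 (0.15) and D630039A03Rik (0.35). That scaling moves every gene up by construction. Limma-voom called Cxcl10 (-1.51). With no filter 1 gene of the interferon gamma route was higher, and 1 NF-kB gene was higher with no filter, RLE factors or DESeq2. Natural killer genes had 1 lower at 1 CPM in 3 libraries, and erythroid genes 5 higher once haemoglobin genes were removed, both with fewer genes of the list tested. The cause of the other changes was not tested.

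Leaving out each pool in turn gave -0.52 to 0.22 for Xcl1, -2.31 to -0.73 for Cxcl10 and 0.045 to 0.59 for Ccl9. It gave 0 to 2 lower receptors, 1 to 2 higher genes of the interferon gamma route, 0 to 1 higher NF-kB genes and 10 to 17 lower CD8 identity genes. Pf4 ranged from -0.94 to 0.17, Ccl1 from -0.072 to 0.55 and Alkbh3 from -0.55 to 0.048. No paired analysis was possible because the groups share no pool numbers. With 3 pools a group, genes of few counts such as Ccl7 and Ccl22 have wide errors.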
